A study of Mus musculus with 15 samples.

Results

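The fibroblast growth factor (FGF) ligands and receptors described here were 10 of the 55536 mouse genes counted: the ligand genes Fgf4, Fgf5, Fgf8, Fgf10, Fgf15 and Fgf17 and the receptor genes Fgfr1, Fgfr2, Fgfr3 and Fgfr4. They were chosen with earlier results of these data known, and all 10 are described whatever their values. RNA-seq covered 15 samples, 3 replicates each of naive embryonic stem cells (ESCs), epiblast-like cells (EpiLCs), and primordial germ cell-like cells (PGCLCs) on days 2, 4 and 6 of induction (D2PGCLCs, D4PGCLCs and D6PGCLCs). All 5 groups carried doxycycline (Dox)-inducible Prdm1, Prdm14, Tfap2c and Nanog transgenes (4TF) in ESCs with a Stella-eGFP reporter, and the study describes its inducible lines as clonal. ESCs were grown in N2B27 with 1 µM PD0325901, 3 µM CHIR99021 and 1000 U/mL LIF. EpiLCs had spent 48 h in N2B27 with 12 ng/mL bFGF, 20 ng/mL Activin A and knockout serum replacement. PGCLCs came from those EpiLCs, aggregated in GK15 medium with 2 µg/mL Dox and sorted as Stella-eGFP+. PD0325901 inhibits MEK, which acts downstream of FGF receptors, and bFGF is itself an FGF ligand, so the effect of the medium and that of the cell state cannot be told apart here, nor can that of the sort, which was applied to PGCLCs.

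FGF ligands are secreted proteins that bind receptor tyrosine kinases together with heparan sulfate, or, for the endocrine ligands, with a Klotho co-receptor. The activated receptor signals largely through adaptors and the RAS-MAPK (ERK) cascade, which turns on feedback inhibitors such as the Sprouty proteins and Dusp6. In mouse pluripotent cells, Fgf4 is an autocrine ligand that drives ESCs out of the naive state, and Fgf5 is a classical marker of the early postimplantation epiblast. Fgf8 acts in the primitive streak, Fgf10 is a mesenchymal ligand of limb and lung, Fgf15 is the mouse counterpart of human FGF19, and Fgf17 belongs to the Fgf8 subfamily. Fgfr1 is the main receptor of the epiblast, and Fgfr2 is prominent in the trophoblast lineage.

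Totals per sample were 22555021 to 42725681 counts, and 3 counts, the floor used here, were worth 0.066 to 0.131 CPM depending on the sample. CPM is the count scaled to a common library total after TMM normalization. D6PGCLC replicate 1 stood apart, with counts on 18061 genes against 21103 to 24343 in the 14 other samples. The D6PGCLC differences called for FGF genes are therefore also given without it, and those of the other pathway genes are not. The cell labels were checked against marker genes. Summed naive markers (Klf4, Klf2, Zfp42, Esrrb, Tbx3 and Nr0b1) were at 1744 to 1774 CPM in ESCs, 371.5 to 373.5 CPM in EpiLCs and 967.7 to 1409 CPM in PGCLCs. Summed formative markers were at 2761 to 2989 CPM in EpiLCs and at most 218.1 CPM elsewhere. Summed PGC markers, which include 3 of the transgenes, were at 1199 to 1397 CPM in PGCLCs and at most 368.9 CPM elsewhere. Not every marker followed the sum. Prdm14 averaged 96.4 CPM in EpiLCs and 93.4, 90.2 and 71.7 CPM on days 2, 4 and 6. Prdm1 averaged 71.6 CPM in EpiLCs and 59.6 CPM in D6PGCLCs. The quasi-likelihood test of edgeR, in 1 fit of all 15 samples, gave the differences. A gene was called where its adjusted p was under 0.05 and its log2 fold change above 1 or below -1. Adjusted p-values are edgeR's unless DESeq2 is named, by Benjamini-Hochberg over 18090 genes in the main fit and over the genes kept in each alternative fit. All 10 genes passed the filter on low counts.

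Sequences upstream of 4 genes with different patterns are shown first, to compare their base composition. RefSeq promoter entries (GRCm38.p6) matched 6 of the 10 genes, and those of Fgfr3 and Fgfr4 are not printed. The 250 bases before the RefSeq start are given for Fgf4, highest in ESCs, Fgf5, highest in EpiLCs, Fgf10, an ESC gene, and Fgfr2, which peaked in D2PGCLCs. None of these windows overlapped an exon that the GENCODE M21 annotation gives the same gene. Capitals mark the GC box letters GGGCGG on either strand (CCGCCC on the other).
Fgf4: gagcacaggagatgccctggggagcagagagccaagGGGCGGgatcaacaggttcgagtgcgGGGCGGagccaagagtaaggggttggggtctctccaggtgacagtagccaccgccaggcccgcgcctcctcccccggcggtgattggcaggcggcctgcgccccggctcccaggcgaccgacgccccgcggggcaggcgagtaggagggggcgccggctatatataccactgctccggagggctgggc
Fgf5: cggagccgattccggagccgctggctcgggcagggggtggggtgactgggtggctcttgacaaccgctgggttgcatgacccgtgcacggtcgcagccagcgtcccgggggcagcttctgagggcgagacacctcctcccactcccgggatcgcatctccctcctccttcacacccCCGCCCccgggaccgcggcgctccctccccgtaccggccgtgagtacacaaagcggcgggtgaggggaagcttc
Fgf10: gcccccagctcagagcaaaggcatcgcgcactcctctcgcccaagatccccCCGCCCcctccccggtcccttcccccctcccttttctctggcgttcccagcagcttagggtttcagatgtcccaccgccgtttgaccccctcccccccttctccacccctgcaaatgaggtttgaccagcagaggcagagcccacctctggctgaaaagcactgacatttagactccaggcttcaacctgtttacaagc
Fgfr2: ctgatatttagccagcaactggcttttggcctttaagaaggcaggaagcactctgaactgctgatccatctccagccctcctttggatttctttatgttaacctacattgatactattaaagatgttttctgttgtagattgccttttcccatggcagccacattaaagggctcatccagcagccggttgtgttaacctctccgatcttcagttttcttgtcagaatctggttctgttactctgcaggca
The Fgf4 window lies at chr7:144861136-144861385 (plus strand), the Fgf5 window at chr5:98253934-98254183 (plus strand), the Fgf10 window at chr13:118714449-118714698 (plus strand) and the Fgfr2 window at chr7:130266809-130267058 (minus strand). The Fgf5 start coincided with the M21 gene start. The others lay inside longer M21 gene models, 14.0 kb from the M21 start for Fgf4 and 44.9 kb for Fgf10. The Fgf4 window held 21 CpG dinucleotides and the Fgf5 window 24, against 8 for Fgf10 and 2 for Fgfr2 and a median of 6 over 32851 RefSeq windows of the same length. The windows not printed held 19 and 24 for the 2 Fgfr3 entries and 15 for Fgfr4. GGGCGG occurred at 2 places for Fgf4, at 1 each for Fgf5 and Fgf10 and at 0 for Fgfr2, and at least once in 32.7% of all windows. The TATA box letters TATAAA (12.4% of all windows) and the octamer ATGCAAAT (1.6%) had no match on either strand in the 4 printed windows. Only these exact letters were searched, so variants, such as TATATA in the Fgf4 window, were not counted. A match of letters describes the window and says nothing of binding.

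Among the ligands, Fgf4 was the most abundant transcript per kb of exon in every group. Fgf4 (ENSMUSG00000050917, chromosome 7, 144847367 to 144865243 of mm10, plus strand) had 2048 to 5791 counts per sample. In CPM, the ESC replicates were at 200.5, 202.1 and 194, the EpiLC replicates at 132.7, 184.9 and 178.4, the D2PGCLC replicates at 66.5, 73.4 and 62.2, the D4PGCLC replicates at 69.8, 98.5 and 73.4, and the D6PGCLC replicates at 125.9, 124.2 and 97.6. Every ESC and EpiLC sample was above every PGCLC sample. The mean went from 199 ± 4.27 CPM in ESCs (SD, n = 3) to 165 ± 28.4 in EpiLCs, and this difference did not pass the test (log2 fold change -0.27, SE 0.13, adjusted p = 0.103). It then fell by 1.30 on the log2 scale from EpiLCs to D2PGCLCs (SE 0.14, adjusted p = 2.21e-07), to 67.4 ± 5.63 CPM. Part of this loss was regained by day 6. D4PGCLCs were at 80.5 ± 15.6 CPM, 0.26 above D2PGCLCs on the log2 scale (SE 0.13, adjusted p = 0.238), and D6PGCLCs at 116 ± 15.8 CPM, 0.78 above D2PGCLCs (SE 0.14, adjusted p = 0.000182) and 0.73 without D6PGCLC replicate 1 (adjusted p = 0.00112). The day 6 difference stayed under the fold-change threshold. On day 6 Fgf4 was still 0.78 below ESCs on the log2 scale (SE 0.13, adjusted p = 7.77e-05; -0.82 without D6PGCLC replicate 1). The order of the means was therefore ESCs, EpiLCs, D6PGCLCs, D4PGCLCs and D2PGCLCs, of which the neighbours ESCs and EpiLCs, and D4PGCLCs and D2PGCLCs, did not differ by the test. EpiLCs and D6PGCLCs were not tested against each other, and their samples did not overlap. In bulk RNA, fewer cells expressing a gene and less of its RNA per cell cannot be told apart.

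Fgf5 was nearly confined to EpiLCs. Fgf5 (ENSMUSG00000029337, chromosome 5, 98254184 to 98277030, plus strand) had 1, 0 and 0 counts in the ESC replicates and 1409, 1974 and 1546 in the EpiLC replicates, or 53.9, 64.9 and 56.7 CPM. It then had 39, 29 and 15 counts in D2PGCLCs, 20, 19 and 11 in D4PGCLCs, and 31, 11 and 9 in D6PGCLCs. No EpiLC sample overlapped any other group. EpiLCs averaged 58.5 ± 5.72 CPM and ESCs had a single count over 3 libraries, a ratio of 4710 with a 95% counting interval of 844.9 to 186100 (adjusted p = 2.11e-12). From EpiLCs to D2PGCLCs Fgf5 fell by 6.04 on the log2 scale (SE 0.32, adjusted p = 2.38e-11), to 0.895 ± 0.393 CPM. It did not return to the ESC level. D6PGCLCs had 51 counts in all against 1 in ESCs, a ratio of 34.4 with a counting interval of 5.90 to 1384 (adjusted p = 0.0006). The fitted log2 fold change, which against a single count depends on the prior count, was 4.73, and 3.95 (adjusted p = 0.00237) without D6PGCLC replicate 1. Without ESC replicate 1, the only ESC sample with a count, Fgf5 was still called in EpiLCs against ESCs (adjusted p = 3.29e-10) and in D6PGCLCs against ESCs (adjusted p = 0.0021). The difference between D6PGCLCs and D2PGCLCs missed the threshold (log2 fold change -1.03, SE 0.41, adjusted p = 0.0538) and was called at -1.82 (adjusted p = 0.00238) without D6PGCLC replicate 1, which holds 31 of the 51 counts.

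Fgf15 also peaked in EpiLCs. Fgf15 (ENSMUSG00000031073, chromosome 7, 144896531 to 144900953, plus strand) begins 31.3 kb after the end of Fgf4 on the same strand. Its replicates were at 1.93, 1.40 and 1.61 CPM in ESCs, 21.8, 28.6 and 28.5 in EpiLCs, 0.827, 0.968 and 0.750 in D2PGCLCs, 0.334, 0.994 and 0 in D4PGCLCs, and 0, 0.462 and 0.312 in D6PGCLCs. The EpiLC samples stood above all others, and every PGCLC sample was below the ESC samples. From ESCs to EpiLCs Fgf15 rose by 3.99 on the log2 scale (SE 0.51, adjusted p = 2.4e-06), whereas Fgf4 next to it did not pass the test. It fell by 4.95 from EpiLCs to D2PGCLCs (SE 0.54, adjusted p = 3.64e-07). On day 6 it was 2.62 below ESCs (SE 0.64, adjusted p = 0.00211), and without D6PGCLC replicate 1, which had 0 counts, the log2 fold change was -2.04 (adjusted p = 0.00624), against -3.42 without D6PGCLC replicate 2 (adjusted p = 0.00152). The difference between D6PGCLCs and D2PGCLCs was -1.65 and missed the threshold (SE 0.68, adjusted p = 0.0652). It was -1.09 without D6PGCLC replicate 1 (adjusted p = 0.18), and was called without D6PGCLC replicate 2 (-2.46, adjusted p = 0.0318), with the replicate block (-1.72, adjusted p = 0.0493) and with no filter on low counts. The antisense gene Gm26793, which shares 761 exon bases with Fgf15, had 0 to 11 counts per sample, against 569 to 870 counts of Fgf15 in EpiLCs.

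Fgf8 and Fgf17, of one subfamily, were low in every group and differed in pattern. Fgf8 (ENSMUSG00000025219, chromosome 19, 45736798 to 45742915, minus strand) had 11, 3 and 0 counts in ESCs, 192, 107 and 102 in EpiLCs, and at most 10 in any PGCLC sample. EpiLC replicate 1, at 7.35 CPM, was above the 2 others at 3.52 and 3.74 CPM, and all EpiLC samples were above all other samples. Fgf8 was 4.76 higher in EpiLCs than in ESCs on the log2 scale (SE 0.73, adjusted p = 2.12e-05), from 401 and 14 counts, a ratio of 27.4 with a 95% counting interval of 16.1 to 50.5. ESC replicate 1 held 11 of those 14 counts, and the log2 fold change was 6.28 without it (adjusted p = 1.9e-05) and 4.14 without ESC replicate 3. Fgf8 fell by 5.77 from EpiLCs to D2PGCLCs (SE 0.78, adjusted p = 5.2e-06), where 8 counts remained over 3 libraries (-6.51 without D2PGCLC replicate 1). Fgf17 (ENSMUSG00000022101, chromosome 14, 70636203 to 70642268, minus strand) was detected in every sample, with 19 to 116 counts. Its mean was 1.95 CPM in ESCs, 3.26 ± 0.963 in EpiLCs, and 1.64, 1.56 and 1.59 CPM on days 2, 4 and 6. In none of the 6 comparisons was it called by edgeR. Its difference between D2PGCLCs and EpiLCs lay at both thresholds (log2 fold change -0.996, SE 0.41, adjusted p = 0.0508), and was called by DESeq2 (-1.04).

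Of the 6 ligands, Fgf10 alone was high in ESCs and near 0 in every other group. Fgf10 (ENSMUSG00000021732, chromosome 13, 118669791 to 118792115, plus strand) had 606, 570 and 555 counts in the ESC replicates, 9, 3 and 14 in the EpiLC replicates, 0, 2 and 3 in D2PGCLCs, 9, 4 and 1 in D4PGCLCs, and 0, 3 and 3 in D6PGCLCs. In CPM, ESCs were at 22.1, 25.0 and 18.6 and no other sample exceeded 0.514. Fgf10 fell by 6.11 on the log2 scale from ESCs to EpiLCs (SE 0.45, adjusted p = 1.64e-09). D6PGCLCs had 6 counts against 1731 in ESCs, 427.9 times fewer per counted read (95% counting interval 196.2 to 1168, adjusted p = 2.32e-10; also called without D6PGCLC replicate 1, adjusted p = 1.18e-09). The further fall from EpiLCs to D2PGCLCs (log2 fold change -2.47, SE 0.81, adjusted p = 0.0155) rested on 26 and 5 counts, and lost its call without EpiLC replicate 3 (-1.92, adjusted p = 0.0967) or D2PGCLC replicate 1 (-1.88, adjusted p = 0.0692), and was -3.09 without D2PGCLC replicate 3. ESCs also had the highest summed mesoderm and primitive streak markers, at 38.6 to 41.2 CPM with 4 of 7 markers above 1 CPM, against 9.38 to 11.1 CPM in EpiLCs, where Mesp1 was at 0 counts, and 19.1 to 35.8 CPM in PGCLCs. The ESC sum was mostly Eomes (21.7 CPM) and T (14.8 CPM). Eomes was also at 23.8 CPM in D4PGCLCs, and Hand1 was at 0.320 CPM in ESCs and 13.1 CPM in D6PGCLCs. Whether such cells were present, and their part in the Fgf10 level, was not tested. Of these groups, only ESCs were grown with the GSK3β inhibitor CHIR99021, with PD0325901 and with LIF. The part of this medium in the Fgf10 level was not tested either, and cannot be told apart from that of the cell state.

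**Figure D1:**
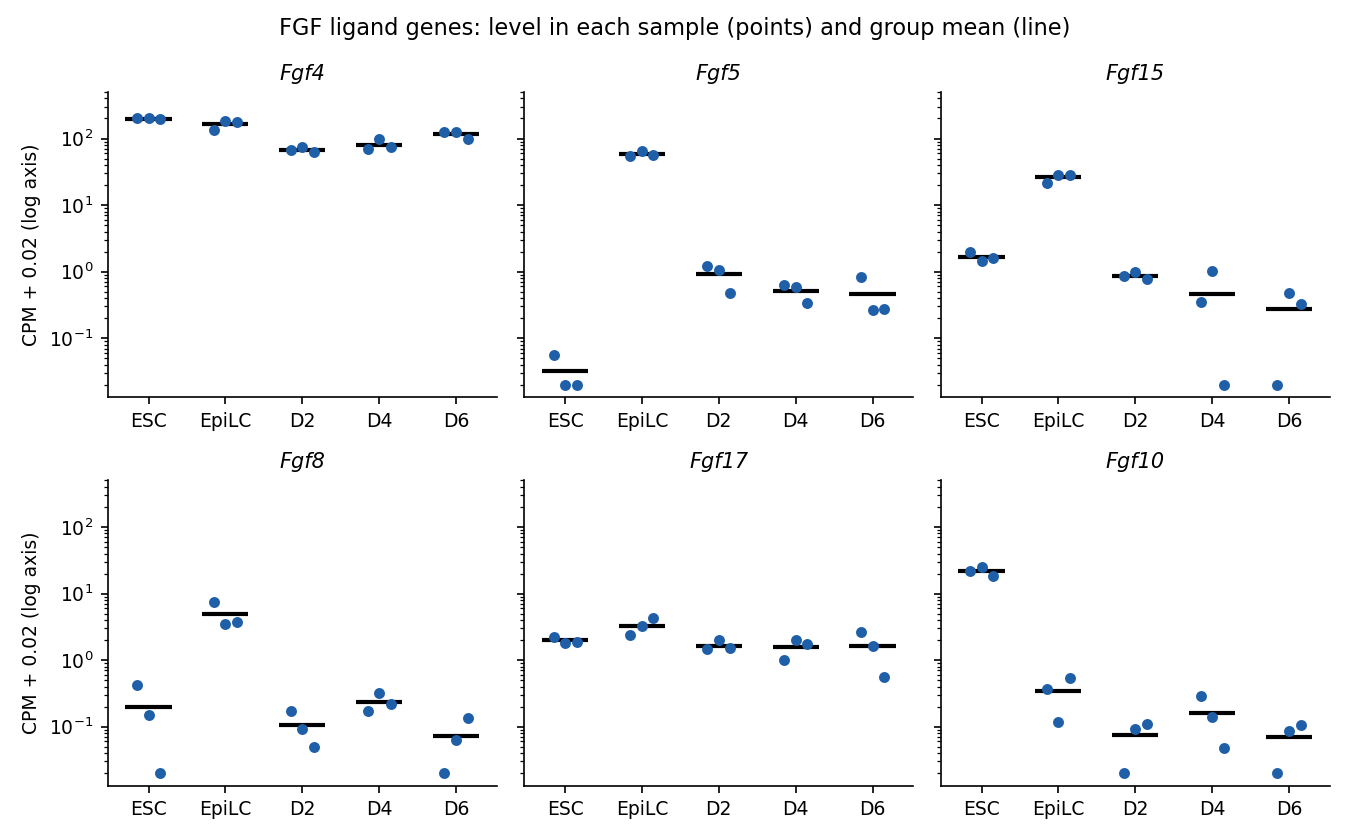
Level of each FGF ligand gene in each of the 15 samples. The vertical axis is CPM + 0.02 on a log scale and the horizontal axis the group; points are replicates 1 to 3 from left to right and lines the group means. Fgf5, Fgf15 and Fgf8 peak in EpiLCs, Fgf10 is at 22.1, 25.0 and 18.6 CPM in ESCs and near 0 elsewhere, and Fgf4 stays above 60 CPM throughout.

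Of the receptors, Fgfr1 had the highest level per kb of exon in every group and Fgfr2 the widest range between groups. Fgfr1 (ENSMUSG00000031565, chromosome 8, 25513654 to 25575718, plus strand) was at 114.4, 112.3 and 109.3 CPM in the ESC replicates, 113.6, 111.9 and 102.4 in EpiLCs, 170.7, 146.8 and 149.3 in D2PGCLCs, 153.9, 156.3 and 145.7 in D4PGCLCs, and 179.9, 161.9 and 146.2 in D6PGCLCs. ESC and EpiLC samples overlapped, the PGCLC days overlapped with each other, and all PGCLC samples lay above all ESC and EpiLC samples. The change from ESCs to EpiLCs was -0.04 on the log2 scale (SE 0.08, adjusted p = 0.755). D2PGCLCs were 0.51 above EpiLCs (SE 0.08, adjusted p = 4.85e-05) and D6PGCLCs 0.54 above ESCs (SE 0.08, adjusted p = 2.69e-05; 0.48 without D6PGCLC replicate 1). Both rises passed the adjusted p and stayed under the fold-change threshold.

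Fgfr2 (ENSMUSG00000030849, chromosome 7, 130162451 to 133123350, minus strand) was nearly silent in ESCs, with 21, 13 and 19 counts, and had 1183, 989 and 828 counts in EpiLCs. The replicates were at 0.766, 0.570 and 0.637 CPM in ESCs, 45.3, 32.5 and 30.4 in EpiLCs, 62.0, 67.0 and 51.4 in D2PGCLCs, 29.3, 24.1 and 23.7 in D4PGCLCs, and 15.6, 15.1 and 16.2 in D6PGCLCs. The 5 groups did not overlap anywhere, and their order was D2PGCLCs, EpiLCs, D4PGCLCs, D6PGCLCs and ESCs. Fgfr2 rose by 5.76 on the log2 scale from ESCs to EpiLCs (SE 0.21, adjusted p = 6.69e-14). It did not fall with Fgf5, Fgf8 and Fgf15 on leaving the EpiLC state, but was another 0.74 higher in D2PGCLCs (SE 0.14, adjusted p = 0.000187). Thereafter it fell by 1.23 to D4PGCLCs (SE 0.14, adjusted p = 3.45e-05) and differed by -0.72 between D6PGCLCs and D4PGCLCs (SE 0.14, adjusted p = 0.00297; -0.72 without D6PGCLC replicate 1), under the fold-change threshold. From D2PGCLCs to D6PGCLCs it fell by 1.95 (SE 0.14, adjusted p = 2.59e-08; -1.94 without D6PGCLC replicate 1). D6PGCLCs were still 4.55 above ESCs (SE 0.21, adjusted p = 3.08e-12; 4.57 without D6PGCLC replicate 1). The M21 model of Fgfr2 extends over many neighbouring genes, its start lying 2856.5 kb from the RefSeq start, and shares 314 exon bases with Ctbp2 on the same strand. Ctbp2 had 2935 to 3478 counts in the ESC samples in which Fgfr2 had 13 to 21. Counts per gene do not separate the IIIb and IIIc splice forms of the receptors, which bind different ligands.

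Fgfr3 and Fgfr4 were minor receptors that were highest, or back at the ESC level, on day 6. Fgfr3 (ENSMUSG00000054252, chromosome 5, 33721674 to 33737068, plus strand), known for its role in bone growth, was at 0.693, 0.614 and 1.21 CPM in ESCs, 0.651, 0.460 and 0.697 in EpiLCs, 1.26, 2.44 and 0.990 in D2PGCLCs, 2.30, 5.09 and 1.78 in D4PGCLCs, and 4.70, 5.53 and 2.83 in D6PGCLCs. Neighbouring days overlapped, and all D6PGCLC samples were above all D2PGCLC samples. Fgfr3 was 1.49 higher in D6PGCLCs than in D2PGCLCs on the log2 scale (SE 0.41, adjusted p = 0.00842; 1.44 without D6PGCLC replicate 1) and 2.36 higher than in ESCs (SE 0.44, adjusted p = 0.000182; 2.32 without D6PGCLC replicate 1). The rise from EpiLCs to D2PGCLCs (1.36, SE 0.47, adjusted p = 0.0197) was not called without EpiLC replicate 2 (1.20, adjusted p = 0.0741) or D2PGCLC replicate 2 (0.91, adjusted p = 0.13). Fgfr4 (ENSMUSG00000005320, chromosome 13, 55152640 to 55168759, plus strand), the receptor that pairs with beta-Klotho in liver, had 49, 41 and 55 counts in ESCs, 31, 42 and 45 in EpiLCs, 9, 22 and 3 in D2PGCLCs, 30, 34 and 36 in D4PGCLCs, and 84, 61 and 74 in D6PGCLCs. D2PGCLCs were the lowest group, with no overlap. Fgfr4 fell by 1.90 from EpiLCs to D2PGCLCs (SE 0.49, adjusted p = 0.00295) and rose by 2.31 from D2PGCLCs to D6PGCLCs (SE 0.48, adjusted p = 0.00098; 2.19 without D6PGCLC replicate 1). D2PGCLC replicate 2 held 22 of the 34 counts of its group, and without it these values were -2.91 (adjusted p = 7.23e-05) and 3.33 (adjusted p = 5.19e-05). The step from D2PGCLCs to D4PGCLCs missed the threshold (1.39, SE 0.49, adjusted p = 0.0729) and was called without D2PGCLC replicate 2 (2.41, adjusted p = 0.00522). D6PGCLCs, at 1.88 CPM on average, overlapped ESCs, at 1.81 CPM.

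**Figure D2:**
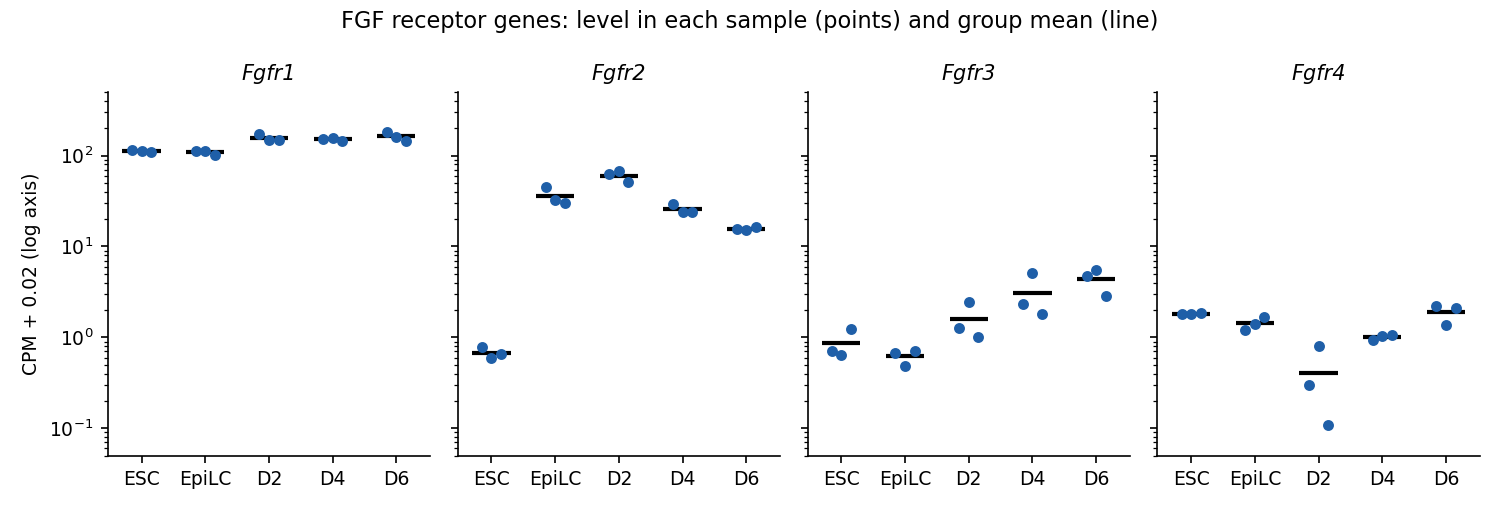
Level of each FGF receptor gene in each of the 15 samples, as CPM + 0.02 on a log scale, by group; points are replicates 1 to 3 from left to right and lines the group means. Fgfr1 lies between 102.4 and 179.9 CPM throughout, Fgfr2 jumps from ESCs to EpiLCs and declines after D2PGCLCs, Fgfr3 is highest in D6PGCLCs and Fgfr4 dips in D2PGCLCs.

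To compare levels between genes, CPM were divided by exon length and summed over the ligands and over the receptors. The ligands of ESCs summed to 68.8 ± 2.12 CPM per kb (SD, n = 3) and those of EpiLCs to 89.4 ± 10.8. On days 2, 4 and 6 of induction the sum was 22.8 ± 2.06, 26.7 ± 5.35 and 37.5 ± 5.52 CPM per kb. All PGCLC samples were below all ESC and EpiLC samples. Fgf4 made up 90.4 ± 0.874% of the ligand sum in ESCs and 57.7 ± 3.30% in EpiLCs, then 92.7%, 94.6% and 96.8 ± 1.28% on days 2, 4 and 6. EpiLCs were thus the group with the most mixed ligand transcripts, with Fgf5 at 26.3 ± 1.83%, Fgf15 at 9.60 ± 0.384% and Fgf8 at 4.23 ± 2.45% of the sum. In ESCs the next ligand after Fgf4 was Fgf10, at 6.90 ± 0.820%, and in PGCLCs, among these 6, it was Fgf17, at 4.24% on day 2 and 2.39% on day 6.

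The summed receptor level ran the other way between EpiLCs and D2PGCLCs. ESCs had 12.0 ± 0.220 CPM per kb and EpiLCs 15.0 ± 1.22, and the PGCLCs had 21.9 ± 1.64, 18.6 ± 0.858 and 19.1 ± 1.83 on days 2, 4 and 6. Every PGCLC sample was above every ESC and EpiLC sample. Fgfr1 made up 94.3 ± 0.521% of the receptor sum in ESCs and 73.7 ± 2.82% in EpiLCs, then 72.0 ± 3.64%, 82.8 ± 0.950% and 86.1 ± 0.737% on days 2, 4 and 6. The share of Fgfr2 was 0.529% in ESCs and 23.1 ± 3.30% in EpiLCs, then 26.6 ± 2.69%, 13.4 ± 1.42% and 7.96 ± 0.955% on the same days, and EpiLCs and D2PGCLCs overlapped in this share. Fgfr3 and Fgfr4 together stayed minor, with Fgfr4 at 4.25% in ESCs, 0.491% in D2PGCLCs and 2.79% in D6PGCLCs. The choice of length moved some of these values. Divided by the longest transcript instead, the receptor sums were 23.1, 30.4, 44.9, 37.0 and 37.4 CPM per kb in the same order of groups, and Fgfr1 made up 96.1%, 71.5%, 68.7%, 81.6% and 86.3% of them. The Fgfr4 share was then 2.36% in ESCs, 0.255% in D2PGCLCs and 1.52% in D6PGCLCs, and the Fgf15 share of the EpiLC ligands 14.7%.

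**Figure D3:**
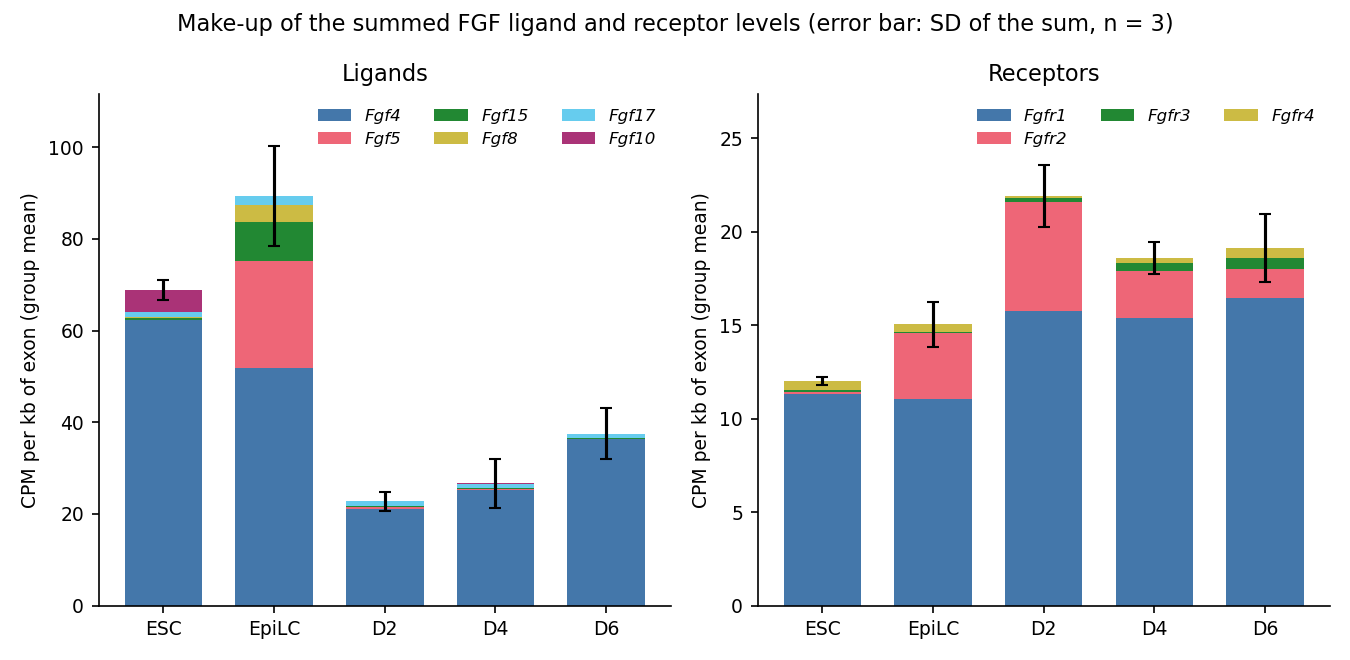
Make-up of the summed ligand and receptor levels. Bars stack the group mean of each gene in CPM per kb of exon, and the error bar is the SD of the sum over 3 samples; the ligand sum is lowest in D2PGCLCs, where the receptor sum is highest, and the mixed bars are the EpiLC ligands and the EpiLC and D2PGCLC receptors.

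Counted over the 6 comparisons, the FGF genes were called most often between D2PGCLCs and EpiLCs. Between EpiLCs and ESCs, 5 of 10 genes were called against 26.2% of all genes tested, 4 higher (14.4% of all genes) and 1 lower (11.9%). Those higher were Fgf5, Fgf8, Fgf15 and Fgfr2, and the 1 lower was Fgf10. Between D2PGCLCs and EpiLCs, 7 of 10 were called against 25.4%, with Fgfr3 higher (11% of all genes) and Fgf4, Fgf5, Fgf8, Fgf10, Fgf15 and Fgfr4 lower (14.4%). The median log2 fold change of the 10 genes in that step was -1.60, beside 0.0033 for all genes tested. These comparisons share the EpiLC samples, so a gene high in those samples is higher in the one and lower in the other.

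Within the PGCLCs few calls were made. Between D4PGCLCs and D2PGCLCs, Fgfr2 alone was called, against 2.94% of all genes (2.56% higher, 0.376% lower). Between D6PGCLCs and D4PGCLCs edgeR called 0 of 10, against 3.08% of all genes (2.29% higher, 0.785% lower). In that step 4 of the 10 had an unadjusted p under 0.05, and DESeq2 also called 0. Fgf4 was 0.53 higher in D6PGCLCs than in D4PGCLCs there (SE 0.13, adjusted p = 0.0151; 0.46 and adjusted p = 0.0633 without D6PGCLC replicate 1). Between D6PGCLCs and D2PGCLCs, 3 of 10 were called against 13.6%, Fgfr3 and Fgfr4 higher (10.9% of all genes) and Fgfr2 lower (2.75%). Between D6PGCLCs and ESCs, 5 of 10 were called against 26.2%, with Fgf5, Fgfr2 and Fgfr3 higher (15.8%) and Fgf10 and Fgf15 lower (10.3%).

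**Figure D4:**
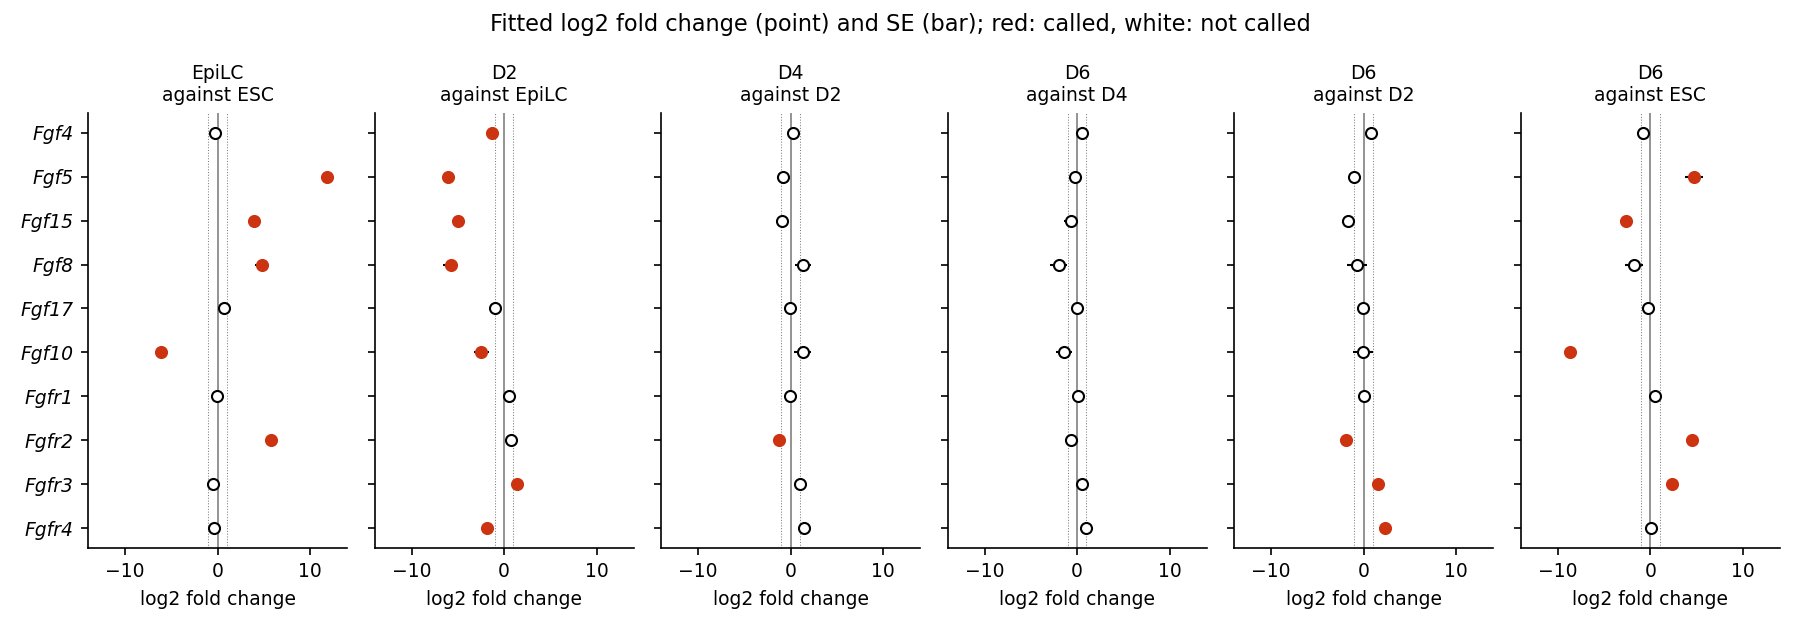
Fitted log2 fold change of each gene in the 6 comparisons, with its SE as a bar; red points were called, white points were not, and dotted lines mark log2 fold changes of -1 and 1. There are 5 red points for EpiLCs against ESCs, 7 for D2PGCLCs against EpiLCs and none between D6PGCLCs and D4PGCLCs; where 1 group had nearly no counts, as for Fgf5 in ESCs, the point depends on the prior count and is no estimate of size.

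The other genes of the pathway were read in the same fits. Their counts stand beside the shares of all genes given above, 14.4% higher and 11.9% lower in EpiLCs against ESCs, 11% and 14.4% in D2PGCLCs against EpiLCs, and 10.9% and 2.75% in D6PGCLCs against D2PGCLCs. No difference between a list and all genes, or between lists, was tested. Of 16 other Fgf genes, not all of which encode secreted ligands, 7 were expressed enough to test. Fgf2, which encodes the ligand added to EpiLC medium, was not among them, at 0.351 CPM in ESCs and 0.0128 CPM in EpiLCs. Fgf13 (an intracellular FGF homologue) rose by 1.09 on the log2 scale from ESCs to EpiLCs (SE 0.20, adjusted p = 0.000154) and was lower in D2PGCLCs (log2 fold change -1.60, SE 0.20, adjusted p = 2.36e-06). Fgf3 and Fgf11 (another intracellular homologue) fell from ESCs to EpiLCs, by 1.74 (adjusted p = 0.0102) and 1.87 (adjusted p = 7.22e-05). In that comparison 2 of the 7 were higher and 2 lower, and in the next 1 and 3. Between D6PGCLCs and D2PGCLCs edgeR called 0 and DESeq2 1, and 3 had an unadjusted p under 0.05.

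Heparan sulfate genes, whose products hold ligand and receptor together, moved in both directions. Of 22 tested, 5 were higher and 4 lower in EpiLCs than in ESCs, 5 and 5 in D2PGCLCs against EpiLCs, and 5 and 0 in D6PGCLCs against D2PGCLCs. The 6-O-sulfotransferase gene Hs6st2 was highest in EpiLCs, with mean CPM of 0.644 for ESCs, 18.4 for EpiLCs and 1.14 for D2PGCLCs (log2 fold changes 4.84 and -4.02, adjusted p = 1.84e-10 and 9.48e-10), and was 1.31 higher in D6PGCLCs than in D2PGCLCs (adjusted p = 0.00115). The 6-O-endosulfatase genes, which remove such sulfates, moved in opposite directions. From EpiLCs to D2PGCLCs Sulf1 fell by 2.23 (adjusted p = 3.99e-13) and Sulf2 rose by 1.84 (adjusted p = 4.67e-13), after Sulf2 had fallen by 1.59 from ESCs to EpiLCs (adjusted p = 1.96e-12). The glypican Gpc1 rose by 2.18 in EpiLCs and Gpc4 fell by 1.90, Gpc4 was 1.43 higher again in D2PGCLCs, and the syndecan Sdc2 rose by 1.81 from D2PGCLCs to D6PGCLCs. Of 12 co-receptor and receptor partner genes, 2 were higher and 5 lower in EpiLCs than in ESCs, Ncam1 (-1.67) and Flrt2 (-1.81) among those lower. In D2PGCLCs against EpiLCs the counts were 1 and 4, with Frs3 1.36 higher and the cadherin Cdh2 1.39 lower (log2 fold change -1.39), and in D6PGCLCs against D2PGCLCs they were 2 and 1, with Flrt3 lower (-1.13).

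Of the genes that carry the signal inside the cell, Braf, Mapk3 and Nf1 were called among the adaptors and cascade members in the comparisons given in this paragraph. Egr1 and Fos had the largest changes named among the ERK feedback genes. Of 21 adaptor and cascade genes, 2 were higher in EpiLCs than in ESCs, Braf by 1.20 (adjusted p = 1.31e-07) and Mapk3, which encodes ERK1, by 1.08 (adjusted p = 3.17e-08). In D2PGCLCs against EpiLCs edgeR and DESeq2 each called 0, with 15 at an unadjusted p under 0.05, and Nf1, a negative regulator of RAS, was 1.04 higher in D6PGCLCs than in D2PGCLCs (adjusted p = 4.07e-06). Of 19 ERK feedback and ETS genes, 9 were higher and 0 lower in EpiLCs than in ESCs, 1 and 6 in D2PGCLCs against EpiLCs, and 0 and 4 in D6PGCLCs against D2PGCLCs. The immediate early gene Egr1 rose by 9.58 from ESCs to EpiLCs (adjusted p = 1.73e-13), fell by 3.83 to D2PGCLCs (adjusted p = 1.74e-10) and was another 2.57 lower in D6PGCLCs (log2 fold change -2.57, adjusted p = 5.78e-07). Fos rose by 7.08 and fell by 6.45 in the same first steps. The phosphatase gene Dusp4 rose by 1.56 from EpiLCs to D2PGCLCs (adjusted p = 1.85e-08), in the step in which Egr1 and Fos fell. Dusp4 was then lower in D6PGCLCs than in D2PGCLCs (log2 fold change -1.08, adjusted p = 6.46e-06). Myc was 2.75 lower in D6PGCLCs than in D2PGCLCs (log2 fold change -2.75, adjusted p = 5.63e-06). ESC medium held the MEK inhibitor, so in the first step the cell state and the inhibitor cannot be told apart for this list.

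For each FGF gene reaching 10 CPM, the genes with the most similar pattern were those with the highest Pearson correlation over the 15 samples in log2(CPM + 1), among 10178 candidates. These correlations describe 5 group levels more than 15 independent points. Fgf5 was most like Spon1 (r = 0.994), Fos (0.993) and Syt13 (0.992), and Fgf15 most like Gap43 (0.994), Sec24d (0.989) and Pim2 (0.987). Fgf10 was most like T (0.998), Sp5 (0.996) and Cnga4 (0.993), with T, the primitive streak factor Brachyury, at 14.8 CPM in ESCs and 0.248 CPM in EpiLCs. Fgfr2 was most like Col18a1 (0.988), Dusp6 (0.985) and Sertad4 (0.984). Dusp6, an ERK phosphatase, averaged 3.88 CPM in ESCs and 69.7 in EpiLCs, then 77.4, 59.3 and 34.1 on days 2, 4 and 6, the same order of groups as Fgfr2. Fgf4 was most like Cmklr1, Klf9 and Gli2 (0.972 each), and Fgfr1 most like Slain2 (0.976), Reps1 (0.966) and Poc1b (0.960).

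Other cell types the samples could hold were checked by their markers. Summed feeder fibroblast markers were highest in EpiLCs, at 18.2 to 19.8 CPM, with 3 of 6 markers above 1 CPM and Lum at 0 counts, against 7.72 to 8.41 CPM in ESCs and 0.919 to 2.19 CPM in PGCLCs. Thy1 alone made up most of the sum in EpiLCs (12.8 CPM) and ESCs (5.80 CPM), and Col1a1 came next in EpiLCs, at 3.60 CPM. Endoderm markers summed to 1.89 to 19.4 CPM, highest in D6PGCLCs, where Gata6 averaged 9.2 CPM. Sox17 (1.28 CPM), Pdgfra (1.785 CPM) and Sox7 (0.992 CPM) were also highest in D6PGCLCs. Gata4 was lower there than in ESCs, at 1.94 against 4.35 CPM, and Foxa2 was highest in EpiLCs, at 1.04 CPM. Trophoblast markers summed to 1.68 to 6.20 CPM and neuroectoderm markers to 19.2 to 87.9 CPM. The part of such cells in the EpiLC ligands and the D6PGCLC receptors was not tested.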

How the data were processed

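RNA-seq was analysed in 15 samples grouped by their labels. The authors prepared libraries with a directional kit, aligned reads to mm10 and deposited unnormalized raw counts for ENSEMBL genes. The submitters' notes name Trim Galore, FastQC and STAR. The counter, and whether it used strand, are not given in the sources used here, so sense and antisense reads may not be separated. Symbols, coordinates and exon lengths came from GENCODE M21, which held all 55536 identifiers.

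edgeR 4.0.16 in R 4.3.3 was run with TMM, filterByExpr (minimum of 10 counts), a coefficient for each group and p-values adjusted by Benjamini-Hochberg over 18090 genes, and was tested on simulated data. SE is the absolute log2 fold change divided by the square root of F. The study's tool, DESeq2 (1.42.0), was an alternative, with its size factors, no filter, a replicate block, 2 groups only, no fold-change threshold and each replicate left out. Counting intervals are exact at 95% and cover counting error only. Nothing states that replicates were separate cultures, so p-values measure the spread between these samples, which may be technical. Replicates differed by more than counting error. All 10 members are named, of each pathway list the 2 highest and 2 lowest called changes with a mean of at least 100 counts, plus Fgf2 and Dusp6 as context, and the 3 closest patterns. The members and lists were chosen with earlier results of these data known.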

Additional observations from a re-analysis of the deposited data

How the results depend on the processing

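The number of FGF genes called stayed within 1.5 times its value under the alternatives run, with these exceptions. For D4PGCLCs against D2PGCLCs, 1 gene was called and 2 with DESeq2, which added Fgfr4, and between 1 and 2 with a replicate left out. For D6PGCLCs against D4PGCLCs, 0 were called and 2 (Fgf4 and Fgfr2) with no fold-change threshold. For D6PGCLCs against D2PGCLCs, 3 were called and 5 with no filter on low counts, 5 with a replicate block, and 3 to 5 with a replicate left out, Fgf5 and Fgf15 being the additions. Whether replicate numbers pair the samples was not settled. Deviations from group means correlated at 0.0703 on average over 30 pairs with the same number (-0.184 to 0.358) and at -0.0352 over 60 pairs with different numbers. Deviations sum to about 0 within each group, which ties the second average to the first, so this check cannot decide on pairing. The change of Fgfr1 from ESCs to EpiLCs had no stable sign, at 0.0006 with DESeq2's size factors and -0.0492 to 0.0217 with a replicate left out, and neither had its changes from D2PGCLCs to D4PGCLCs (-0.0764 to 0.0376) or to D6PGCLCs (-0.0096 to 0.1332). Fgf17 in D2PGCLCs against EpiLCs was called with DESeq2 (-1.04, adjusted p = 0.0373), with its size factors (-1.04, adjusted p = 0.0423) and without EpiLC replicate 1 (-1.18, adjusted p = 0.0376). The cause of these shifts was not tested. Counts of other pathway genes called differed by at most 3 between edgeR, DESeq2 and the block. Fgf8 and Fgf10, with at most 10 counts in any PGCLC sample, were too shallow to order the days.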
